A study of Mus musculus with 18 samples.

Results

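The genes described here are 10 that mark intraepithelial lymphocytes or the granules and signalling of such cells: Cd3e, Cd3g, Cd3d, Cd8a, Gzma, Gzmb, Itgae, Rgs1, Srgn and Tyrobp. They were listed by symbol, and all 10 had a value among the 16358 genes measured on 18 exon arrays. The RNA came from intestinal epithelium of 6 female mice carrying Cyp1a1-H2B-YFP, a fluorescent histone driven by the Cyp1a1 promoter, which βNF switches on. The mice were 99 to 109 days old and every group had received βNF 10 days earlier. Per the design text, each mouse gave 3 sorted populations of 30000 cells: YFP-LRCs (CD24+/UEA-/YFP+), the cells that still held the label, Paneth cells (CD24+/UEA+), and LCCs (CD24+/UEA-/YFP-), with 6 arrays per population. CD24, the lectin UEA-1 and YFP are the gates that text names.

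Intraepithelial lymphocytes are T cells that lie between the epithelial cells of the gut, many of them carrying CD8 and holding cytotoxic granules ready. They stay in place through the integrin alpha E chain, which pairs with integrin beta 7 and binds E-cadherin on epithelial cells. Preparations of gut epithelium commonly hold some of them. Several of the 10 genes are not limited to T cells: Tyrobp is used by natural killer and myeloid cells, and Rgs1 and Srgn by leukocytes of many kinds.

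RefSeq promoter windows on GRCm38.p6, running from 250 bases before to 50 bases after a gene's start, were found for 7 of the 10 genes, with 8 windows in all because Srgn has 2. Rgs1, Tyrobp and Itgae are named only. Both Srgn windows are shown because Srgn differed between populations, and those of Cd3g and Cd3d because these neighbours on chromosome 9, on opposite strands, did not pass the test in any comparison. Capitals mark 3 motifs searched on both strands: CAGCTG (an E-box), CCGGAA (an ETS-type core) and TGTGGT (a RUNX-type core, ACCACA on the other strand).
Srgn, chr10:62527396-62527695, minus strand: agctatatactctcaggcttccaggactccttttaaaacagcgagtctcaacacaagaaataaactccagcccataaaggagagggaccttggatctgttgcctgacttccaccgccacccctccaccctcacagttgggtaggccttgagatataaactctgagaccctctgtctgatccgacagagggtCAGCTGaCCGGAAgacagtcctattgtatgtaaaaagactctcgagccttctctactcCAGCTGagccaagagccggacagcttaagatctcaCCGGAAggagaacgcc
Srgn, chr10:62507708-62508007, minus strand: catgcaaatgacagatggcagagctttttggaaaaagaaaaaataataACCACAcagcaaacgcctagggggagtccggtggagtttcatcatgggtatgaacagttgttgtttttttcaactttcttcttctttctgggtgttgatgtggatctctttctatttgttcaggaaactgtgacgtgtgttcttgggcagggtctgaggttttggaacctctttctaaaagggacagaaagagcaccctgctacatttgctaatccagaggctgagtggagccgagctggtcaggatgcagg
Cd3g, chr9:44980382-44980681, minus strand: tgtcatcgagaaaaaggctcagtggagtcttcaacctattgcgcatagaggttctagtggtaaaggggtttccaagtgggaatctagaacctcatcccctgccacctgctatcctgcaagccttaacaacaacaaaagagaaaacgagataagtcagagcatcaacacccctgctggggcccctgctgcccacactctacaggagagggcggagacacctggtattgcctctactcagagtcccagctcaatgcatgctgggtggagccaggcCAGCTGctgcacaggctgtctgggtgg
Cd3d, chr9:44981536-44981835, plus strand: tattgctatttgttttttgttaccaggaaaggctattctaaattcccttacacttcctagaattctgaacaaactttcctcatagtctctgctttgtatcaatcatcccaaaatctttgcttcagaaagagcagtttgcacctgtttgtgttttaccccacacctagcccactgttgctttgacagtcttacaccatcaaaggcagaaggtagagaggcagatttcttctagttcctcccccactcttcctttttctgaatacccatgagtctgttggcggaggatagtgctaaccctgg
The first Srgn window holds 2 CAGCTG and 2 CCGGAA matches and the second holds 1 TGTGGT match. The Cd3g window holds 1 CAGCTG match and the Cd3d window holds none of the 3 motifs. Of the 8 windows, 3 hold CAGCTG, 1 holds CCGGAA and 3 hold TGTGGT. Among all 32851 promoter windows of that length the shares are 16.3%, 14.9% and 16.8%, in the same order, and a match is only a description of these letters.

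Values are log2 values made by the RMA method, and a gene's value on an array is the median over its probe sets. A level is read here against the median gene of the same array, which was 6.54 to 6.60 on YFP-LRC arrays, 6.53 to 6.65 on Paneth arrays and 6.40 to 6.57 on LCC arrays. Probe sets differ in brightness for reasons unrelated to RNA amount, so the level of one gene is not set against that of another. Some LCC arrays stood apart from the rest. With each array correlated against the other 17 and the median taken, YFP-LRC arrays had 0.916 to 0.950, Paneth arrays 0.929 to 0.947 and LCC arrays 0.825 to 0.938, with LCC mice 1 and 4 highest in their group at 0.938 and 0.928. LCC mouse 6 was the lowest of all arrays, at 0.825.

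The general picture was of low values for most of the T cell genes in all 3 populations, and of higher Rgs1, Srgn and Tyrobp on LCC arrays. Cd3g, Cd3d, Gzmb and Itgae lay below the median gene on all 18 arrays. Cd8a and Gzma were above it on 2 arrays each, Srgn on 3 and Rgs1 on 4, the last 2 on LCC arrays alone. Cd3e and Tyrobp were above it on 12 and 11 arrays. The defining T cell genes other than Cd3e were thus on the dim side of most arrays, which does not show that a transcript was absent.

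**Figure D1:**
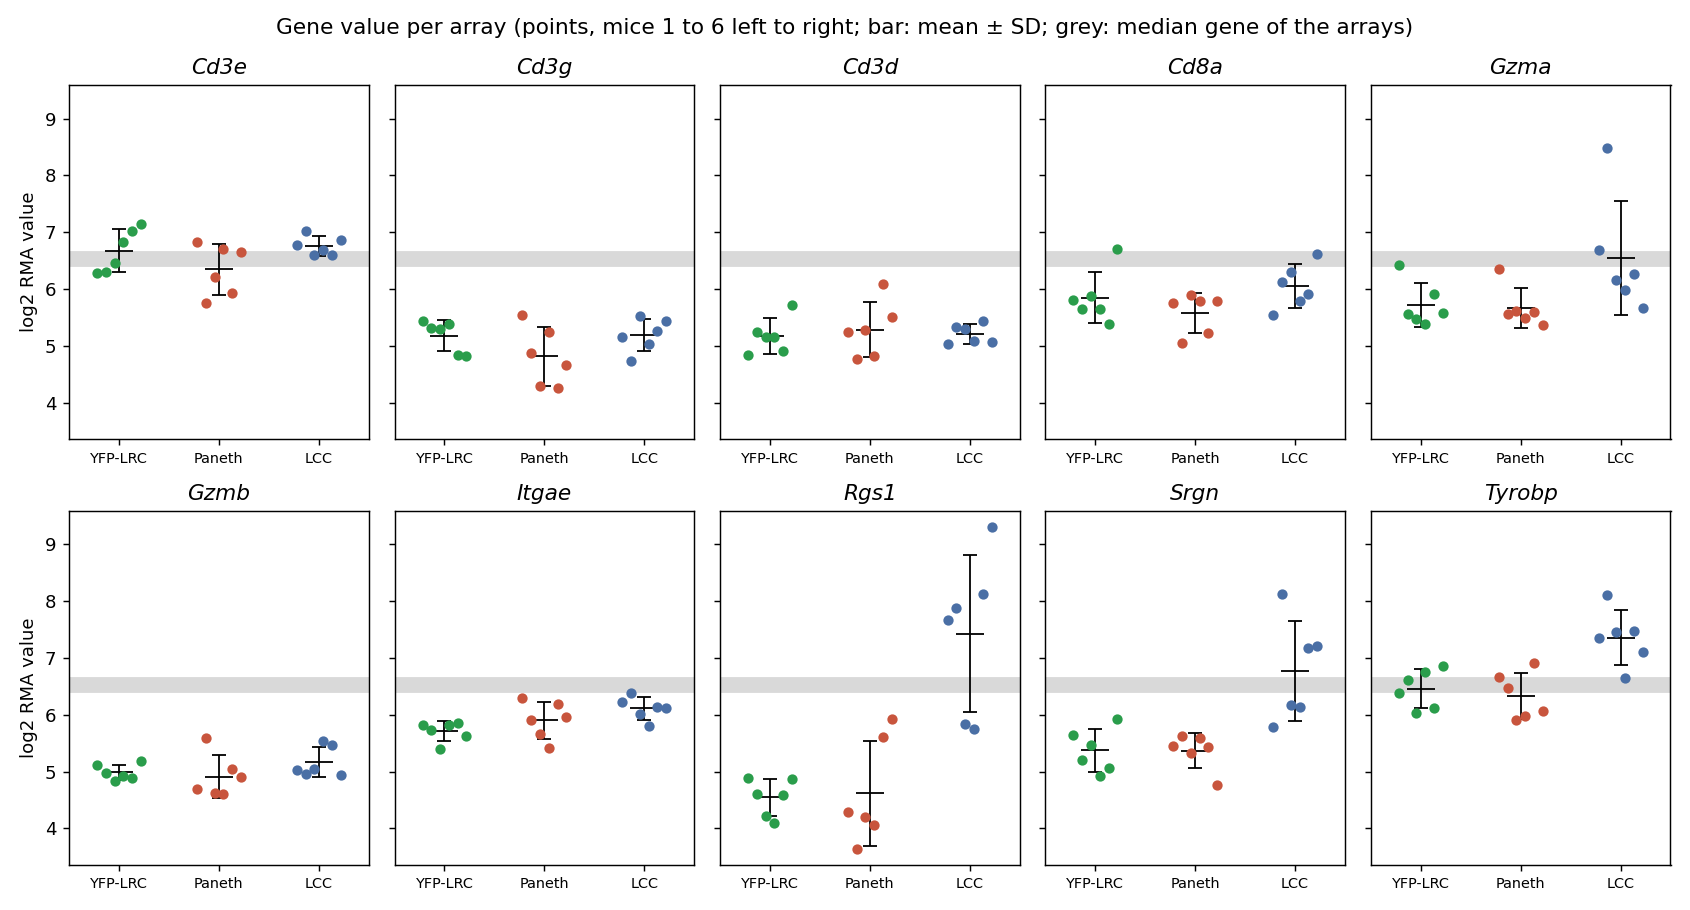
Log2 RMA value (y axis) of the 10 genes on each array of YFP-LRC, Paneth and LCC cells (x axis); each point is 1 array, black bars are the mean ± SD of 6 arrays, and the grey band spans the median gene of the 18 arrays. Rgs1 averaged 4.54 in YFP-LRC and 4.62 in Paneth cells but 7.43 in LCC, while Cd3g, Cd3d and Gzmb stayed under the grey band in all 3 populations.

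Of the CD3 chains of the T cell receptor complex, none was called in any comparison. Cd3e, Cd3g and Cd3d encode the invariant CD3 chains that carry the receptor's signal into the cell. Cd3e had a lowest, median and highest value of 6.28, 6.64 and 7.15 on YFP-LRC arrays, 5.76, 6.43 and 6.83 on Paneth arrays, and 6.59, 6.73 and 7.02 on LCC arrays. The 3 ranges overlap, and the LCC arrays alone were all above their array's median gene. Cd3g had 4.82, 5.30 and 5.44 on YFP-LRC arrays, 4.26, 4.76 and 5.54 on Paneth arrays, and 4.74, 5.20 and 5.53 on LCC arrays. These values lay between the 6.41 and the 21.3 percentile of all genes on their arrays. Cd3d, the third CD3 chain, had 4.84, 5.16 and 5.72 on YFP-LRC arrays, 4.76, 5.26 and 6.08 on Paneth arrays, and 5.04, 5.18 and 5.44 on LCC arrays, with full overlap between groups.

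Cd8a, the alpha chain of the CD8 coreceptor, which many intraepithelial lymphocytes carry as a pair of alpha chains, gave a similar picture. Its lowest, median and highest values were 5.39, 5.73 and 6.70 on YFP-LRC arrays, 5.05, 5.77 and 5.90 on Paneth arrays, and 5.54, 6.03 and 6.62 on LCC arrays. The groups overlap, and the highest value of all came from the YFP-LRC array of mouse 6, at the 55.0 percentile of that array. Cd8b1, the beta chain, averaged 6.24 in YFP-LRC, 6.04 in Paneth and 6.39 in LCC, and Cd247, the zeta chain of the receptor, averaged 6.36, 6.22 and 6.20 in the same order. Neither was called in any comparison.

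The granzymes, proteases that cytotoxic cells release from granules to kill their targets, did not share 1 pattern over the arrays. Gzma, the tryptase-like granzyme, had a lowest, median and highest value of 5.39, 5.56 and 6.43 on YFP-LRC arrays, 5.37, 5.58 and 6.35 on Paneth arrays, and 5.67, 6.21 and 8.48 on LCC arrays. The groups overlap, and the highest value belongs to LCC mouse 2, at the 93.7 percentile of its array, while the other 5 LCC arrays ran from 5.67 to 6.69. Gzmb, the granzyme that cuts after aspartate, had 4.84, 4.95 and 5.19 on YFP-LRC arrays, 4.61, 4.80 and 5.59 on Paneth arrays, and 4.94, 5.03 and 5.53 on LCC arrays. On LCC mouse 2, where Gzma was high, Gzmb was 4.96, near the low end of its group. Prf1, the pore-forming protein that lets granzymes into a target cell, averaged 5.94 in YFP-LRC, 6.09 in Paneth and 5.94 in LCC.

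Itgae, the integrin alpha E chain (CD103) that holds these lymphocytes in the epithelium, was below the median gene on every array. It had 5.40, 5.77 and 5.86 on YFP-LRC arrays, 5.41, 5.94 and 6.29 on Paneth arrays, and 5.80, 6.12 and 6.38 on LCC arrays. The YFP-LRC values sat around the low end of the LCC range, overlapping only the LCC array of mouse 4 at 5.80. Its partner chain Itgb7 averaged 6.84 in YFP-LRC, 6.82 in Paneth and 6.93 in LCC.

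The differences called among the 10 genes lay with Rgs1, Srgn and Tyrobp, and these calls were not equally stable. In YFP-LRC against LCC they were lost in 1, 3 and 12 of 33 alternatives, in that order. Rgs1 encodes a regulator of G protein signalling that dampens chemokine receptor responses in lymphocytes. Its lowest, median and highest values were 4.10, 4.60 and 4.88 on YFP-LRC arrays, 3.64, 4.24 and 5.93 on Paneth arrays, and 5.75, 7.77 and 9.31 on LCC arrays. No YFP-LRC array reached the lowest LCC array. The Paneth array of mouse 6, at 5.93, lay above the LCC arrays of mice 3 and 4, at 5.84 and 5.75. That of mouse 5, at 5.60, stayed just below the LCC range. Within the LCC group the gene moved from the 25.6 to the 98.3 percentile of the array, the widest span of the 10 genes.

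Srgn encodes serglycin, the proteoglycan core on which granzymes and other granule proteins are packed. Its lowest, median and highest values were 4.92, 5.34 and 5.93 on YFP-LRC arrays, 4.77, 5.44 and 5.62 on Paneth arrays, and 5.78, 6.68 and 8.13 on LCC arrays. All Paneth arrays were below all LCC arrays, and 1 YFP-LRC array overlapped the LCC range. Tyrobp encodes the adaptor DAP12, which passes on signals from activating receptors of natural killer and myeloid cells. Its values were 6.03, 6.50 and 6.85 on YFP-LRC arrays, 5.91, 6.27 and 6.91 on Paneth arrays, and 6.64, 7.40 and 8.10 on LCC arrays. Its overlap came from the LCC array of mouse 4, the lowest of that group.

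Each comparison below is limma's moderated test over all 16358 genes, called at a Benjamini-Hochberg adjusted p under 0.05, with standard errors from the fit and 6 arrays per population. For YFP-LRC against LCC, the question was which genes separate label-retaining from unlabelled cells of the same CD24+/UEA- gate. Of the 10 genes, 3 were called lower in YFP-LRC and 0 higher. An unadjusted p under 0.05 was found for 5 of the 10 and for 4060 of all genes. Over all genes 0.917% were called lower and 6.33% higher. That split of 1035 higher and 150 lower moved to 378 and 236 after a second quantile normalization and to 610 and 295 with each array centred on its median. Rgs1 averaged 4.54 ± 0.33 in YFP-LRC and 7.43 ± 1.39 in LCC (SD, n = 6 each), a log2 difference of -2.89 ± 0.50 (SE), or 7.39-fold lower (limma adjusted p = 0.00443), and it was lower in 6 of 6 mice. Its 2 groups did not overlap, which held for 0.373% of all genes in that direction.

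Srgn averaged 5.37 ± 0.38 in YFP-LRC and 6.77 ± 0.89 in LCC, a log2 difference of -1.40 ± 0.31 or 2.64-fold lower (limma adjusted p = 0.0132), lower in 6 of 6 mice. Without mouse 2 the adjusted p was 0.0579, and without mouse 5 it was 0.0817. Tyrobp averaged 6.46 ± 0.34 in YFP-LRC and 7.35 ± 0.48 in LCC, a log2 difference of -0.89 ± 0.23 or 1.86-fold lower (limma adjusted p = 0.0251), lower in 5 of 6 mice. That call lies close to the threshold and was lost in 12 of 33 alternatives. It was lost without the YFP-LRC array of mouse 3 or 5, the LCC array of mouse 2, 3 or 5, or all arrays of mouse 2, 3 or 5, with adjusted p up to 0.102. LCC mice 1 and 4 had the highest median correlation with the other arrays in their group. With them as the only LCC arrays, 0 of the 10 genes were called, where 1 of 16358 genes was called higher and 3 lower. Lost calls with so few LCC arrays, and those the most like the rest, do not show that a difference is absent. In that setting Rgs1 differed by -2.16 (adjusted p = 0.251), Srgn by -0.59 (adjusted p = 0.527) and Tyrobp by -0.53 (adjusted p = 0.639). Sorted RNA of this kind does not tell fewer cells of a type from less RNA per cell.

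The other 7 genes were not called in YFP-LRC against LCC. Gzma differed by -0.82 ± 0.34 (adjusted p = 0.143) with a lower value in 6 of 6 mice, and by -0.43 (adjusted p = 0.239) without the LCC array of mouse 2. Itgae differed by -0.40 ± 0.15 (adjusted p = 0.106) with a lower value in 5 of 6 mice. For Cd8a, Gzmb, Cd3e, Cd3d and Cd3g the differences lay between -0.21 and -0.01. The 95% interval was -0.50 to 0.33 for Cd3e, -0.45 to 0.42 for Cd3g and -0.44 to 0.38 for Cd3d, so differences of this size in the CD3 chains were not resolved at 6 arrays a group. The median over the 10 genes was -0.30, beside 0.04 over all genes.

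For YFP-LRC against Paneth, the comparison of label-retaining cells with the mature secretory cells of the crypt base, 0 of the 10 genes were called by limma in either direction, and 0 had an unadjusted p under 0.05. Of all 16358 genes, 903 had an unadjusted p under 0.05. Over all genes 0.0550% were called higher and 0.300% lower. Rgs1 differed by -0.07 ± 0.50 with a 95% interval of -1.12 to 0.97, and Srgn by 0.01 ± 0.31 with an interval of -0.63 to 0.65. Tyrobp differed by 0.13 ± 0.23 with an interval of -0.35 to 0.60. The largest differences were those of Cd3g, 0.37 ± 0.21 (interval -0.07 to 0.80), and Cd3e, 0.32 ± 0.20 (interval -0.09 to 0.74). The interval of Rgs1 leaves room for a 2-fold difference in the negative direction, which this fit would not have resolved. The fit pools the spread of all populations, so that interval also carries the wider spread of Rgs1 on LCC arrays. The median over the 10 genes was 0.07, beside 0.00 over all genes.

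For Paneth against LCC, 3 of the 10 genes were called lower in Paneth cells and 0 higher, beside 2.53% of all genes called lower and 12% called higher. An unadjusted p under 0.05 was found for 5 of the 10 and for 4937 of all genes. The split over all genes, 1958 higher and 414 lower, moved to 995 and 785 after a second quantile normalization and to 1389 and 983 with each array centred. Centring also moved the median over all genes to -0.08, against 0.03 without it. This comparison shares its LCC arrays with YFP-LRC against LCC, so the 2 sets of values are not independent. Rgs1 averaged 4.62 ± 0.92 in Paneth cells and 7.43 ± 1.39 in LCC (SD, n = 6 each), a log2 difference of -2.81 ± 0.50 or 7.02-fold lower (limma adjusted p = 0.00141), lower in 6 of 6 mice.

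Srgn averaged 5.36 ± 0.31 in Paneth cells and 6.77 ± 0.89 in LCC, a log2 difference of -1.41 ± 0.31 or 2.65-fold lower (limma adjusted p = 0.00571), lower in 6 of 6 mice. It was the 1 gene of the 10 without overlap here, which 0.801% of all genes showed in that direction. Tyrobp averaged 6.33 ± 0.41 in Paneth cells and 7.35 ± 0.48 in LCC, a log2 difference of -1.02 ± 0.23 or 2.03-fold lower (limma adjusted p = 0.0062), also lower in 6 of 6 mice. With LCC mice 1 and 4 alone, Rgs1 differed by -2.09 (adjusted p = 0.074), Srgn by -0.60 (adjusted p = 0.38) and Tyrobp by -0.66 (adjusted p = 0.381).

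Of the 7 genes not called in Paneth against LCC, Gzma had the largest difference, -0.88 ± 0.34 (adjusted p = 0.0878), with a lower value in 6 of 6 mice. Without the LCC array of mouse 2 it differed by -0.49 (adjusted p = 0.142). Cd8a differed by -0.47 ± 0.22 (adjusted p = 0.157), Cd3e by -0.41 ± 0.20 (adjusted p = 0.171) and Cd3g by -0.38 ± 0.21 (adjusted p = 0.226). Gzmb, Itgae and Cd3d differed by -0.25, -0.21 and 0.08. The median over the 10 genes was -0.44, beside 0.03 over all genes.

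**Figure D2:**
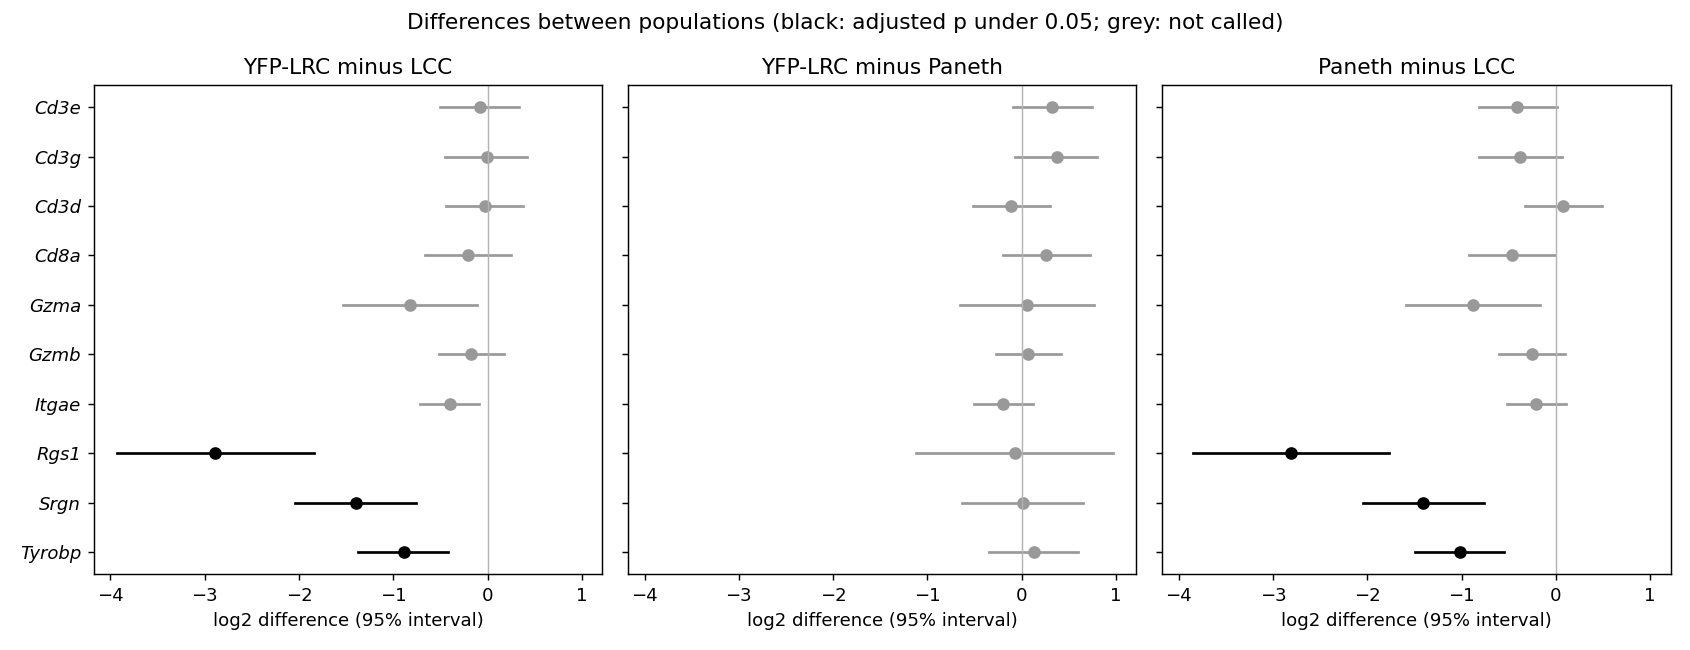
Log2 difference (x axis) of each of the 10 genes (rows) in the 3 comparisons, with 95% intervals from the fit; black points are called at an adjusted p under 0.05 and grey points are not. Rgs1, Srgn and Tyrobp are black and negative in both comparisons with LCC, and no gene is black in YFP-LRC minus Paneth.

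Dim and bright genes did not behave alike on these arrays, which bears on how the negative differences are read. With all genes ranked by mean value and divided into 5 equal bins, the median difference of YFP-LRC against LCC was -0.13 in the dimmest bin and 0.38 in the brightest. For Paneth against LCC it was -0.17 in the dimmest bin and 0.43 in the brightest, and for YFP-LRC against Paneth it stayed between -0.04 and 0.03. Cd3g, Cd3d and Gzmb fall in bin 1, the dimmest, Cd8a, Gzma, Itgae, Rgs1 and Srgn in bin 2, and Cd3e and Tyrobp in bin 3. In bin 2, the share of genes called lower was 1.19% for YFP-LRC against LCC and 3.61% for Paneth against LCC. The median there was -0.05 and -0.10 in that order, so the differences of Cd8a and Itgae lie nearer to their bin's median than those of Srgn and Rgs1 do.

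**Figure D3:**
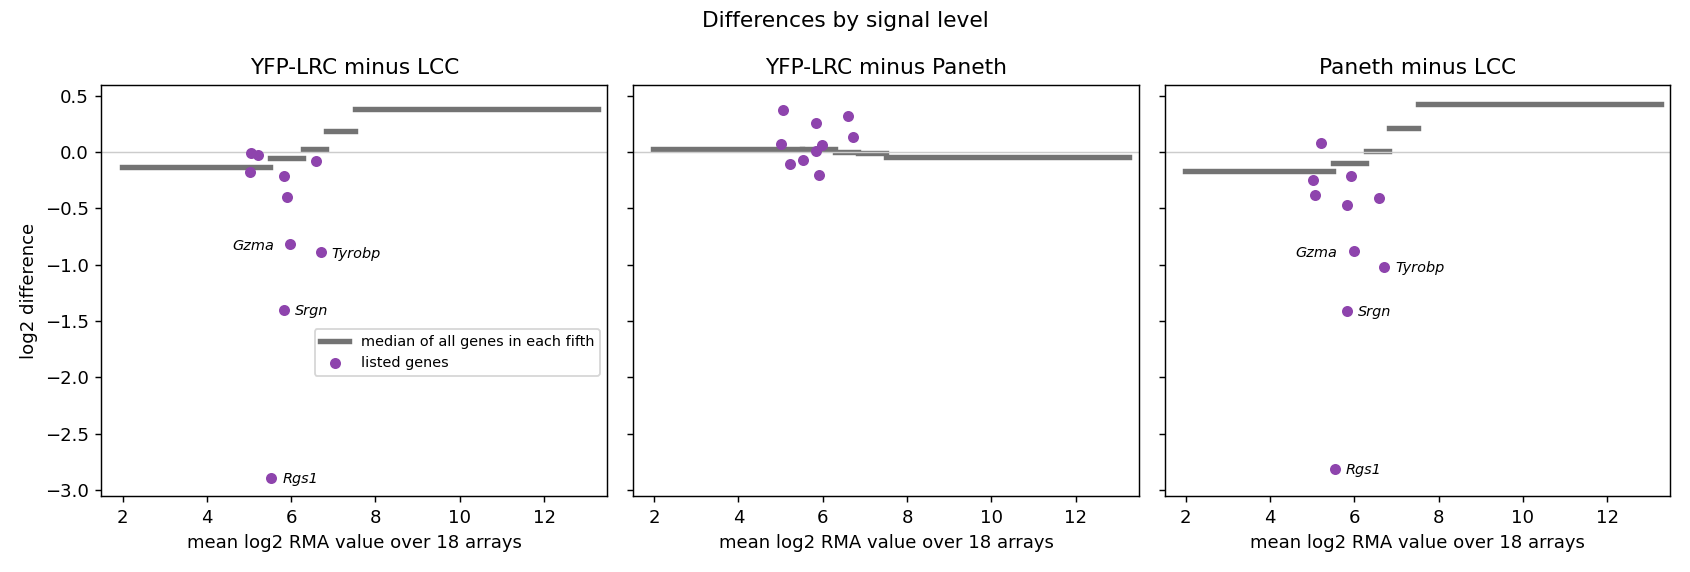
Log2 difference (y axis) against the mean log2 RMA value over 18 arrays (x axis) for the 3 comparisons; grey bars give the median difference of all genes in each of 5 bins of signal and purple points are the 10 genes. The grey bars climb with signal in both comparisons with LCC, from -0.13 to 0.38 and from -0.17 to 0.43, and Rgs1, Srgn, Tyrobp and Gzma lie farthest below them.

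An exon array reads each gene through several probe sets, and these did not all carry the difference. The 10 genes have 105 probe sets, of which 36 had a mean above 6.65, the median of all probe set values. Tested singly over 209279 probe sets, 7 of the 105 were called lower and 0 higher in YFP-LRC against LCC, where 0.503% of all probe sets were called lower and 2.13% higher. Paneth against LCC gave 7 lower and 1 higher, beside 1.45% and 4.90%. In YFP-LRC against Paneth limma called 0 of them in either direction, beside 0.0129% of all probe sets called higher and 0.0354% called lower.

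Rgs1 had all 8 of its probe sets below 0 in YFP-LRC against LCC, from -3.96 to -0.54, and 4 were called. The probe set with the largest difference averaged 4.55 in YFP-LRC, 4.81 in Paneth and 8.51 in LCC, a difference of -3.96 ± 0.58 for YFP-LRC against LCC (adjusted p = 0.00357). Another averaged 6.49 in YFP-LRC, 6.88 in Paneth and 9.77 in LCC, a difference of -3.28 ± 0.37 (adjusted p = 0.000636). The remaining Rgs1 probe sets include one at 2.30, 2.85 and 2.84 in the same order, near the low end of the scale, and a bright one with a difference of -0.84 (adjusted p = 0.223), so the gene's value is a median over probe sets of very unequal response.

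For Srgn the size of the difference depended on the probe set. The 3 dimmer ones, at 3.62, 4.21 and 5.37 in YFP-LRC, were called lower by 1.86, 1.21 and 1.32 on the log2 scale, while the 2 brighter ones, at 9.34 and 9.36 in YFP-LRC, differed by -0.70 (adjusted p = 0.11) and -0.28 (adjusted p = 0.522). Read through the brighter probe sets alone, Srgn differed by -0.49 in YFP-LRC against LCC and by -0.41 in Paneth against LCC, and the second was no longer called (adjusted p = 0.0664). Rgs1 in YFP-LRC against LCC was -2.15 (adjusted p = 0.00109) through its brighter probe sets and -1.96 (adjusted p = 0.00254) with the mean over probe sets. Rgs1 in Paneth against LCC was -1.65 (adjusted p = 0.00133) through its brighter probe sets and -1.68 (adjusted p = 0.00229) with the mean over probe sets. Tyrobp with the mean over probe sets was -0.52 (adjusted p = 0.058) in YFP-LRC against LCC and -0.57 (adjusted p = 0.028) in Paneth against LCC. Through its brighter probe sets Tyrobp lost its call in both, with -0.80 (limma adjusted p = 0.0553) in YFP-LRC against LCC. Tyrobp had 6 of 7 probe sets below 0 and none called in YFP-LRC against LCC, and its brightest probe set, at 9.23 in YFP-LRC and 9.02 in LCC, differed by 0.21. Against LCC, 1 Tyrobp probe set was called lower in Paneth cells. Of the 37 Itgae probe sets, 1 was called higher in Paneth cells, at 7.96 ± 1.05 against 6.12 ± 0.88 in LCC (adjusted p = 0.0304), the opposite direction to the gene's median.

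**Figure D4:**
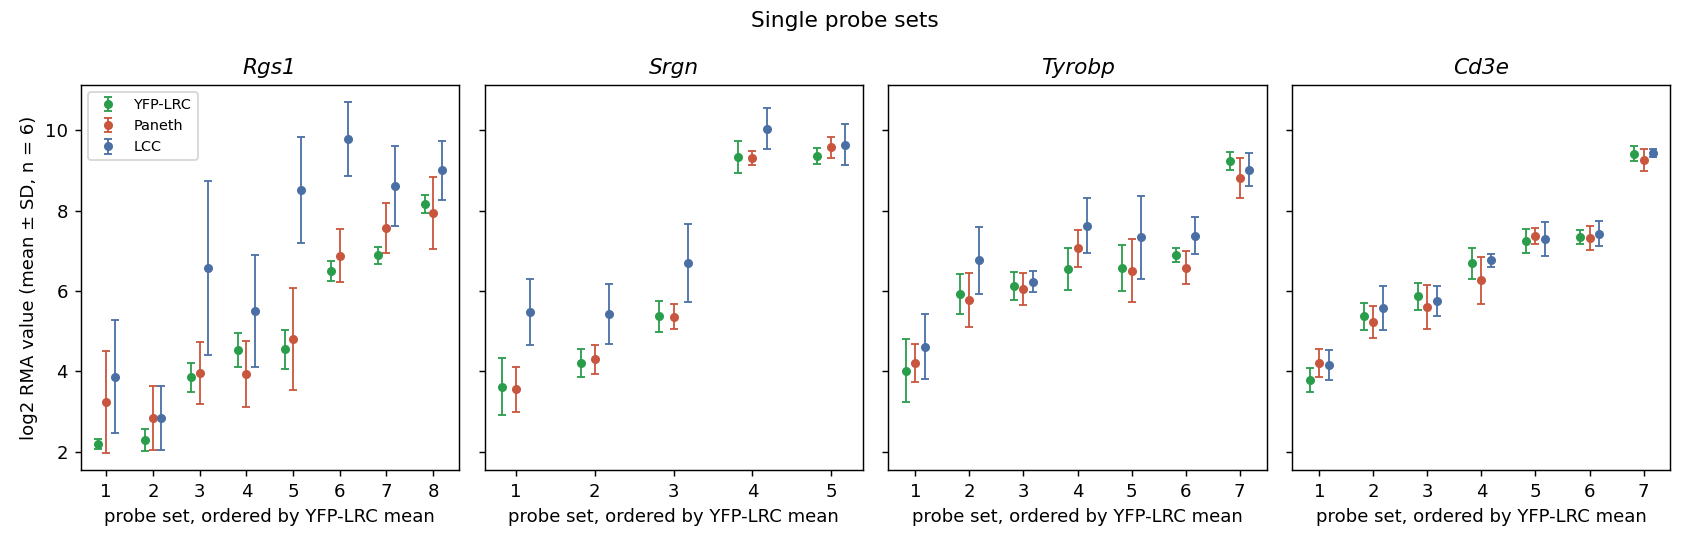
Mean ± SD log2 RMA value over 6 arrays (y axis) of every probe set (x axis, ordered by the YFP-LRC mean) of Rgs1, Srgn, Tyrobp and Cd3e in YFP-LRC (green), Paneth (red) and LCC (blue). The LCC points of Rgs1 stand apart in probe sets 5 and 6, at 8.51 and 9.77, those of Srgn in the dimmer ones, and those of Cd3e overlap the other populations within their SDs.

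The 10 genes did not vary as 1 unit across arrays. Over the 45 pairs of genes, Pearson's r across all 18 arrays ran from -0.49 to 0.78. It was highest for Srgn with Tyrobp (0.78), Rgs1 with Srgn (0.76), Itgae with Tyrobp (0.73) and Rgs1 with Tyrobp (0.72). After each population's mean was removed, these became 0.46, 0.33, 0.69 and 0.24. Arrays share their normalization and, in sets of 3, their mouse, so these are descriptions. Among LCC arrays the highest gene also changed from mouse to mouse: Rgs1 peaked in mouse 6 at 9.31, where Gzma had its lowest LCC value of 5.67, while Srgn, Tyrobp, Gzma and Itgae peaked in mouse 2 at 8.13, 8.10, 8.48 and 6.38. The LCC array of mouse 6 was the one least correlated with the other arrays, at a median of 0.825.

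The genes whose values across the 18 arrays were most like the mean of the 10 were Adcy10 (r = 0.89), Olfr895, 2700081O15Rik, Itgax, 2810410L24Rik, Trap1a, Vmn1r15, Wfdc13, Tesmin and Olfr827 (r = 0.832). Itgax encodes an integrin chain of dendritic cells and macrophages, and Olfr895, Olfr827 and Vmn1r15 encode olfactory and vomeronasal receptors. Rgs1 alone was most like Vmn1r201 (r = 0.886), Tm6sf1, Fbln5, Grm6 and Trap1a (r = 0.858). Cd3g was most like Sdhc (r = 0.786), Fam131b, Olfr656, Icam4 and Tceal3 (r = 0.769). These correlations also rest on 18 arrays from 6 mice.

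The wider gene lists are read against all 16358 genes, of which 0.917% were called lower and 6.33% higher in YFP-LRC against LCC. These shares were 0.300% and 0.0550% in YFP-LRC against Paneth, and 2.53% and 12% in Paneth against LCC. An unadjusted p under 0.05 was found for 4060 of all genes in YFP-LRC against LCC, 903 in YFP-LRC against Paneth and 4937 in Paneth against LCC. Of 15 measured genes of the T cell receptor complex and its proximal signalling, limma called 0 in YFP-LRC against LCC, with 2 at an unadjusted p under 0.05 and a median of -0.11. It called 0 in YFP-LRC against Paneth, with 1 at an unadjusted p under 0.05. In Paneth against LCC it called 1 lower, the kinase Zap70 at 6.24 in Paneth and 6.59 in LCC (-0.35 ± 0.12, adjusted p = 0.047). That call was lost in 23 of 33 alternative settings. The list's mean per array ran from 6.10 to 6.29 on YFP-LRC arrays, from 6.03 to 6.23 on Paneth arrays and from 6.23 to 6.40 on LCC arrays.

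Of 14 cytotoxic effector genes, limma called 0 in YFP-LRC against LCC, with 3 at an unadjusted p under 0.05, and 0 in YFP-LRC against Paneth, with 2. Paneth against LCC gave 1 higher, the lysosomal protein Lamp1 (1.55 ± 0.40, adjusted p = 0.0146), and 1 lower, Tbx21, the transcription factor T-bet (-0.53 ± 0.16, adjusted p = 0.0282). The Lamp1 call was lost in 4 and the Tbx21 call in 13 of 33 alternatives. Of 13 homing and retention genes, 0 were called in YFP-LRC against LCC, with 3 at an unadjusted p under 0.05, and 0 in YFP-LRC against Paneth, with 1. Paneth against LCC gave 1 higher, Il15ra, the receptor chain that presents interleukin 15 (0.69 ± 0.20, adjusted p = 0.0244), a call lost in 11 of 33 alternatives. On the epithelial side Cdh1, the E-cadherin that integrin alpha E binds, averaged 10.15 in YFP-LRC and 9.39 in LCC (0.75 ± 0.18, adjusted p = 0.019, a call lost in 6 of 33 alternatives), and 10.24 in Paneth against 9.39 in LCC (0.84 ± 0.18, adjusted p = 0.00478). Cdh1 lies in the brightest bin, where all genes had a median difference of 0.38 and 0.43 in those comparisons. In that bin 16.1% and 27.7% of genes were called higher. Cdh1 was the 1 of 7 epithelial partner genes called in those comparisons, and 0 were called in YFP-LRC against Paneth, with 0 at an unadjusted p under 0.05.

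Of 11 genes of natural killer and innate lymphoid receptors and adaptors, 1 was called higher and 1 lower in both comparisons with LCC. The receptor kinase Kit was higher by 1.26 in YFP-LRC and by 1.57 in Paneth, and the lectin-like receptor Klre1 was lower by 0.54 in YFP-LRC (adjusted p = 0.0491) and by 0.64 in Paneth (adjusted p = 0.0137) on the log2 scale. The Klre1 call in YFP-LRC was lost in 23 of 32 alternatives. YFP-LRC against Paneth gave 0 calls, with 2 at an unadjusted p under 0.05. Of 11 other regulators of G protein signalling, 0 were called lower against LCC, as Rgs1 was. Rgs13 was called higher in YFP-LRC than in LCC (0.65, adjusted p = 0.0434, a call lost in 20 of 33 alternatives) and higher in Paneth than in LCC (1.70), lower in YFP-LRC than in Paneth (-1.05), and Rgs2 was called higher in Paneth than in LCC (1.35).

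Genes of white blood cells in general went in mixed directions. Of 16 pan-leukocyte genes, 0 were called higher and 1 lower in YFP-LRC against LCC, 0 higher and 4 lower in YFP-LRC against Paneth, and 6 higher and 2 lower in Paneth against LCC. Over all genes the shares in that order were 6.33% and 0.917%, 0.0550% and 0.300%, and 12% and 2.53%. Ptprc, which encodes CD45, had a lowest, median and highest value of 5.17, 5.74 and 6.07 on YFP-LRC arrays, 6.97, 7.75 and 8.06 on Paneth arrays, and 5.92, 6.28 and 7.16 on LCC arrays. It was highest in Paneth cells, where Rgs1, Srgn and Tyrobp were low. Its difference was -0.66 ± 0.22 in YFP-LRC against LCC (adjusted p = 0.0729), -1.99 ± 0.22 in YFP-LRC against Paneth (adjusted p = 0.000104) and 1.33 ± 0.22 in Paneth against LCC (adjusted p = 0.000745).

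Plek, Rac2 and Ptpn6, signalling genes of blood cells, were the other 3 called lower in YFP-LRC than in Paneth, Plek by 1.97 and Rac2 by 1.26 on the log2 scale, and the Ptpn6 call was lost in 16 of 33 alternatives. Plek, Vav1, Ptpn6 and Rac2 were higher in Paneth than in LCC, by 1.83, 1.51, 1.26 and 0.98, whereas Cytip and the cytoskeletal gene Coro1a were lower there, by 0.70 and 0.63 on the log2 scale. Tuft cell genes moved in the direction of Ptprc in the comparisons with Paneth cells: 5 of 12 were called lower and 0 higher in YFP-LRC against Paneth, and 10 of 12 were called higher and 0 lower in Paneth against LCC. Among those 10 the largest were Cd300lf, Ptgs1, Siglec5, Alox5 and Dclk1. Over all genes, 0.300% were called lower in YFP-LRC against Paneth and 12% higher in Paneth against LCC. In YFP-LRC against LCC, where Ptprc differed by -0.66, limma called 0 of the 12, with 4 at an unadjusted p under 0.05 and a list median of 0.35. The part of tuft cells in the Ptprc values was not tested.

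Cytip, a cytohesin-binding protein of lymphoid and myeloid cells, went with the LCC arrays. It averaged 5.04 ± 0.21 in YFP-LRC and 5.87 ± 0.26 in LCC without overlap (-0.83 ± 0.14, adjusted p = 0.004), lower in 6 of 6 mice. The call was lost in 2 of 32 alternatives, with LCC mice 1 and 4 alone and through the brighter probe sets, where the difference was -0.26 (adjusted p = 0.493). The 6 LCC arrays had 5.98, 6.29, 5.70, 5.56, 5.97 and 5.70, all still below their array's median gene.

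Il1b, Cxcl2 and Hbb-b1 were, like Rgs1, Srgn and Tyrobp, higher in LCC than in the other populations. The lists they come from did not move as a whole. In YFP-LRC against LCC the list median was 0.14 for activation and immediate early genes and -0.09 for red blood cell genes. Of 18 activation and immediate early genes, 2 were called higher and 2 lower in YFP-LRC against LCC: Nr4a1 and Nfkbiz were higher by 0.80 and 0.68, calls lost in 24 and 16 of 33 alternatives, and the cytokine genes Cxcl2 and Il1b were lower, by 1.25 and 0.93 on the log2 scale, calls lost in 3 and 4 of 33 alternatives. Il1b, the inflammatory cytokine of myeloid cells, had 6.02, 6.17 and 6.39 on YFP-LRC arrays, 5.52, 6.20 and 6.53 on Paneth arrays, and 6.61, 6.93 and 8.13 on LCC arrays, without overlap of LCC with either. Relative to LCC, Il1b was lower in Paneth cells by 1.03 and Cxcl2 by 0.94 on the log2 scale, Nr4a1 was higher by 0.84 (lost in 9 of 33 alternatives), and YFP-LRC against Paneth gave 0 calls and 0 genes at an unadjusted p under 0.05.

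Of 19 myeloid genes, 0 were called in YFP-LRC against LCC, with 2 at an unadjusted p under 0.05, 0 in YFP-LRC against Paneth, with 1, and 1 lower in Paneth against LCC, Itgax (-0.49, adjusted p = 0.0401, a call lost in 14 of 32 alternatives). The myeloid list's mean per array was 6.24 to 6.39 on YFP-LRC arrays, 6.23 to 6.47 on Paneth arrays and 6.32 to 6.53 on LCC arrays. Hbb-b1, a beta globin of red blood cells, was the 1 of 3 red blood cell genes called: it had 4.34, 4.51 and 4.85 on YFP-LRC arrays, 3.89, 4.25 and 4.50 on Paneth arrays, and 5.15, 6.23 and 9.54 on LCC arrays. The LCC arrays of mice 3 and 6 were the highest, at 8.94 and 9.54, and no LCC array overlapped either other group. It differed by -2.34 ± 0.56 in YFP-LRC against LCC (adjusted p = 0.0195) and by -2.69 ± 0.56 in Paneth against LCC (adjusted p = 0.00448). Without mouse 3 the YFP-LRC call was lost (adjusted p = 0.0758). The part of myeloid or red blood cells in the Rgs1, Srgn and Tyrobp differences was not tested.

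**Figure D5:**
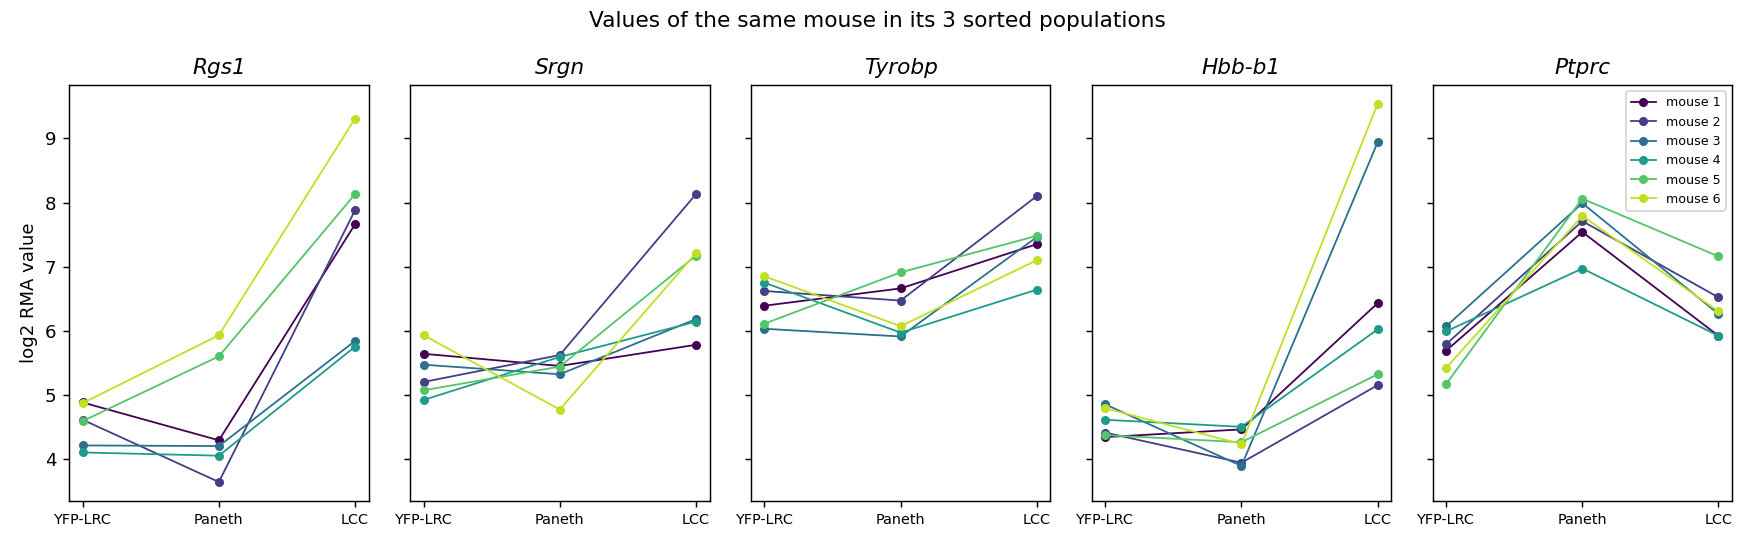
Log2 RMA value (y axis) of Rgs1, Srgn, Tyrobp, Hbb-b1 and Ptprc in the 3 sorted populations (x axis), with a line for each of the 6 mice. Every mouse has more Rgs1 and Srgn signal in LCC than in its other 2 populations, Hbb-b1 is highest in LCC mice 3 and 6, and Ptprc is highest in Paneth cells in 6 of 6 mice.

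The remaining marker lists describe the epithelial cells of the 3 populations. Of 12 epithelial genes, 2 were called higher in YFP-LRC than in LCC, Krt18 and Cdh1, and 3 higher in Paneth than in LCC, Krt18, Cdh1 and Epcam. The shares called higher in these comparisons were 6.33% and 12% over all genes, and 16.1% and 27.7% in the brightest bin. All 12 were above the median gene in all 3 populations, and their mean per array ran from 9.59 to 9.85 in YFP-LRC, 9.76 to 10.14 in Paneth and 9.05 to 9.85 in LCC. Epcam, an adhesion protein of epithelium, differed by 0.36 in YFP-LRC against LCC (adjusted p = 0.0829). Of 10 Paneth cell genes, 5 were called higher in YFP-LRC against LCC, 2 lower in YFP-LRC against Paneth (Mptx1 and Ang4) and 8 higher in Paneth against LCC. Of 10 enteroendocrine genes, 4 were called higher in YFP-LRC against Paneth (Gip, Rfx6, Chga and Chgb) and 4 lower in Paneth against LCC. Over all genes, 0.0550% were called higher and 0.300% lower in YFP-LRC against Paneth, and 2.53% lower in Paneth against LCC.

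Of 10 B and plasma cell genes, 1 was called, Jchain, the joining chain of polymeric antibodies, at 5.21 in Paneth and 5.94 in LCC (adjusted p = 0.0481), a call lost in 24 of 32 alternatives. In YFP-LRC against LCC limma called 0 of them, with 4 at an unadjusted p under 0.05, and in YFP-LRC against Paneth 0, with 1. Of 9 mast cell and basophil genes it called 0 in all 3 comparisons, with 2 at an unadjusted p under 0.05 in YFP-LRC against LCC, 0 in YFP-LRC against Paneth and 3 in Paneth against LCC. Of 10 stromal and endothelial genes it also called 0 in all 3, with 2, 0 and 4 in the same order.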

How the data were processed

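RNA (8 ng per sample) from 18 sorts was amplified with a NuGEN whole-transcript kit and hybridised to Mouse Exon 1.0 ST arrays, per the labels. The authors deposited log2 values made with Affymetrix Power Tools 1.12.0 by RMA for mm9 core probe sets, per the file headers; quantile normalization covered all arrays. Of 229581 probe sets, 209279 mapped to 1 symbol; 4446 with several and 15856 with none were left out. A gene's value was the median over its probe sets (median 11), giving 16358 genes. Symbols were updated through RefSeq GRCm38.p6 (names only). No filter on low values was applied. limma 3.58.1 (R 4.3.3) fitted a mean per population over 18 arrays, checked on simulated data. No scan date or batch was given, so no batch could be tested; 6 arrays per population limit the precision. Members, lists and tests were chosen with earlier results of these data known. Named beyond the 10 genes were 7 fixed genes, up to 5 called genes per list and comparison, Coro1a, and the most similar patterns. Pairing comes from the design text, in which each mouse gave all 3 populations; the labels give the YFP-LRC sample of mouse 6 a different litter number from its partners. Same-mouse deviations correlated at 0.015 to 0.406 between YFP-LRC and LCC, 0.041 to 0.175 between YFP-LRC and Paneth, and -0.114 to 0.177 between Paneth and LCC. Alternatives were the mouse as a block, other summaries of probe sets, other scalings, a filter on dim genes, array weights, subsets of arrays, leaving out each array or mouse, and, added after seeing the data, single probe sets.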

Additional observations from a re-analysis of the deposited data

Results flagged for a closer look

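Each of the 10 genes was tested in each population for a single array far from the other 5, by Dixon's ratio of the gap to the range against its 95% critical value. Of 30 such groups, 4 exceeded it, where chance gives about 1 in 20. Cd8a was 6.70 in the YFP-LRC sample of mouse 6, against 5.87 for the next highest (ratio 0.632). Gzma was 6.35 in the Paneth sample of mouse 1, against 5.62 for the next (ratio 0.741). Gzma was 8.48 in the LCC sample of mouse 2, against 6.69 for the next (ratio 0.635). Srgn was 4.77 in the Paneth sample of mouse 6, the lowest of its group, with the nearest at 5.32 (ratio 0.646).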

How the results depend on the processing

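As gene values, Rgs1, Srgn and Tyrobp kept their direction against LCC in the 33 alternatives, and Rgs1 lost its call only with LCC mice 1 and 4 alone. Single probe sets did not all do so: 1 of Tyrobp was 0.21 in YFP-LRC against LCC, 1 of Rgs1 was 0.01 in Paneth against LCC, and 4 and 3 of the 8 Rgs1 probe sets were called in these comparisons. With the mouse as a replicate block, 3 of the 10 genes were called lower in YFP-LRC against LCC, 0 in YFP-LRC against Paneth and 3 lower in Paneth against LCC, and no call of the 10 changed. The number of the 10 called was 0 in both comparisons when LCC mice 1 and 4 were the only LCC arrays, and 1 in Paneth against LCC with the median over probe sets above the overall median; leaving out arrays or mice gave 1 to 3 in YFP-LRC against LCC, with 1 without mouse 2 and 1 without mouse 5, against 3 in the full data.

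Over all genes, calls in YFP-LRC against LCC numbered 1035 higher and 150 lower, against 1702 and 426 with the mean over probe sets, 381 and 34 with only these populations fitted, 1 and 3 with LCC mice 1 and 4 alone, and 185 to 1762 and 21 to 394 on leaving out arrays or mice. Paneth against LCC gave 1958 and 414, against 2766 and 1222, 1379 and 213, 141 and 15, and 776 to 2553 and 108 to 721 in the same order.

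Among gene values, the directions that turned belong to differences not called. In YFP-LRC against LCC, with the brighter probe sets, Cd3g was 0.20, Gzmb 0.07, Itgae 0.05, Cd247 -0.10 and Prf1 -0.02; with LCC mice 1 and 4 alone, Cd3g was 0.08, Cd3d 0.11, Cd8a 0.18, Itgb7 0.19 and Prf1 -0.00382; with array weights, Cd3g was 0.04 and Prf1 -0.12. Prf1 was also -0.10 with the mean over probe sets, -0.04 after a second quantile normalization and -0.10 with centring. In YFP-LRC against Paneth, with the brighter probe sets, Cd3e was -0.05, Cd3d 0.05, Cd8a -0.07, Itgae 0.22, Srgn -0.09, Tyrobp -0.15, Itgb7 -0.26 and Prf1 0.04. With the mean over probe sets, Cd3g was -0.03, Srgn -0.04, Itgb7 -0.03 and Cdh1 0.00447, with array weights Rgs1 was 0.10 and Srgn -0.07, and after a second quantile normalization Srgn was -0.02. In Paneth against LCC, Cd3d was -0.02 with the mean over probe sets, -0.49 with the brighter probe sets, -0.03 with centring and -0.02 with array weights. Cd247 was -0.08, -0.15 and -0.09 with the mean, the brighter probe sets and centring, and -0.05 after a second quantile normalization. Prf1 was -0.06 with the mean and -0.06 with the brighter probe sets, and Itgb7 was 0.17 with LCC mice 1 and 4 alone.

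On leaving out arrays or mice, the differences in YFP-LRC against LCC ran from -0.19 to 0.04 for Cd3e, -0.13 to 0.11 for Cd3g, -0.17 to 0.07 for Cd3d, -0.16 to 0.00313 for Itgb7, -0.34 to 0.07 for Cd8b1 and -0.24 to 0.20 for Prf1. In YFP-LRC against Paneth they ran from -0.23 to 0.10 for Cd3d, -0.08 to 0.20 for Gzma, -0.28 to 0.19 for Rgs1, -0.22 to 0.14 for Srgn, -0.00422 to 0.31 for Tyrobp, -0.07 to 0.15 for Itgb7 and -0.28 to 0.02 for Prf1. Paneth against LCC ran from -0.08 to 0.21 for Cd3d, -0.22 to 0.01 for Itgb7 and -0.09 to 0.11 for Cd247. Cd8a was called in Paneth against LCC with the mean over probe sets (-0.34, adjusted p = 0.0259). Cd8b1 was called there in 1 of 32 alternatives (limma adjusted p = 0.00845). In YFP-LRC against LCC, Ptprc was called in 3 and Epcam in 1 of 33 alternatives, all of them on leaving out arrays or mice. The causes of these changes were not tested. Cd3g, Cd3d and Gzmb lie in the dimmest of the 5 bins of genes, and whether low signal bears on their small differences was not tested. Genes dropped as dim have no value under that filter.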
